A study of Mus musculus with 6 samples.

Results

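The 10 genes described here control entry into the cell cycle: the D cyclin genes Ccnd1, Ccnd2 and Ccnd3, the kinase genes Cdk4 and Cdk6, the CDK inhibitor genes Cdkn1a, Cdkn1b, Cdkn2c and Cdkn2d, and the retinoblastoma gene Rb1. They were picked by symbol from a table of 24421 genes, and all 10 were found. Their RNA was measured in macrophages sorted as F4/80+ CD11b+ cells from the visceral fat of obese male C57BL/6N mice. There were 3 groups of 2 libraries: 4-hydroxyestrone (4-OHE1) at 10 mg/kg, estradiol (E2) at 10 mg/kg, and the ethanol vehicle (EtOH). All mice were 12 weeks old, ate a diet with 60 kcal% fat and were injected under the skin every 6 days over 30 days. 4-OHE1 carries a further hydroxyl group on the aromatic ring and a ketone in place of the D-ring alcohol of estradiol. Whether both libraries of a group stem from different animals, and whether animals were pooled, is not given in the labels. Each p-value therefore reflects the spread of these libraries alone, and that spread may be technical.

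D cyclins are made in response to growth factors. They bind CDK4 or CDK6, and the complex phosphorylates the retinoblastoma protein, which then releases E2F transcription factors and lets the genes of S phase be transcribed. The INK4 inhibitors, to which the products of Cdkn2c and Cdkn2d belong, bind CDK4 and CDK6 directly. The CIP/KIP inhibitors p21 (Cdkn1a) and p27 (Cdkn1b) bind cyclin-CDK complexes and can hold a cell in G1. In adipose tissue of obese animals, macrophage numbers are known to be kept up by local division as well as by recruited monocytes, and CSF1 is a main growth signal for these cells.

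The libraries held 4515276 to 35293924 reads in exons, and those of EtOH were the deepest. The share of all tags that lay in exons was 61.7% ± 1.19 in 4-OHE1, 74.1% ± 2.41 in E2 and 84.8% ± 0.366 in EtOH (SD, n = 2 each). The authors' RPKM, reads per kilobase of exon, are relative to all tags of a library. Each value was therefore also put relative to exon reads, by rescaling to the mean exon share of EtOH. Between the authors' scaling and that to exon reads, the median log2 change of the 10950 genes tested moved from -0.18 to -0.0049 for E2 against EtOH, from -0.44 to -0.04 for 4-OHE1 against EtOH, and from -0.25 to -0.02 for 4-OHE1 against E2. A gene is said to have risen or fallen only where limma called it in the same direction under both scalings, at an adjusted p under 0.05. Levels are the authors' RPKM unless stated, log2 changes are differences of log2(RPKM + 1) relative to exon reads with their SE, and of the adjusted p under either scaling the larger is printed. In bulk RNA, fewer cells of a kind and less RNA per cell cannot be told apart.

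All 8 macrophage markers looked at, among them Csf1r and Lyz2, were detected in every library, with a sum of 4066 and 3957 RPKM in 4-OHE1, 5856 and 5578 in E2, and 8189 and 8329 in EtOH. Lyz2 held most of each sum, at 2381 and 2350 RPKM in 4-OHE1, 3754 and 3585 in E2, and 5725 and 5806 in EtOH. Mertk went the other way, at 43.42 and 39.45 RPKM in 4-OHE1, 29.76 and 31.9 in E2, and 24.71 and 24.27 in EtOH. The sums for other cells moved with the groups too, though single markers could go against their sum. All these sums are in the authors' RPKM and were not rescaled to exon reads, whose share was lowest in 4-OHE1. Relative to exon reads, falls against EtOH are smaller, and the stromal sum of 4-OHE1 lies above that of E2. The 8 adipocyte markers, all above 0 in every library, summed to 253 and 236 RPKM in 4-OHE1, 159.7 and 159.8 in E2, and 56.9 and 61.1 in EtOH. Of these, Lep went against the sum, with 0.8 and 1.325 RPKM in 4-OHE1 and 2.503 and 1.749 in EtOH. The 7 stromal markers, also all above 0, summed to 178 and 175 RPKM in 4-OHE1, 206 and 198 in E2, and 265 and 269 in EtOH. Among them Col1a1 was at 6.439 and 4.813 RPKM in 4-OHE1 and 26.25 and 26.6 in EtOH. Dpt went against the sum, with 50.09 and 49 RPKM in 4-OHE1 and 28.88 and 28.6 in EtOH. The 6 endothelial markers were all above 0 and summed to 18.4 to 24.6 RPKM across the libraries. Of 7 T or NK cell markers 6 were in the table, and they summed to 1.49 and 1.99 RPKM in 4-OHE1, with 5 and 3 of them at 0, 4.83 and 5.58 in E2, and 10.0 and 10.3 in EtOH. Il7r held most of each sum, at 1.491 and 1.515 RPKM in 4-OHE1, 2.746 and 3.511 in E2, and 8.805 and 8.663 in EtOH. Cd3g was at 0 in both libraries of 4-OHE1, 0.978 and 1.019 RPKM in E2, and 0.178 and 0.642 in EtOH. The 5 B cell markers summed to 8.62 to 11.9 RPKM. Of 6 neutrophil markers, 3 to 6 were at 0 in each library and the sum was at most 3.55 RPKM. The 5 mesothelial markers summed to 3.38 and 2.25 RPKM in 4-OHE1, with 3 at 0 in each, 2.605 and 3.898 in E2, and 6.97 and 8.85 in EtOH. The 5 germ cell or epididymis markers summed to 4.38 and 4.76 RPKM in 4-OHE1, with 3 and 4 at 0, 16.2 and 8.76 in E2, and 0.912 and 0.935 in EtOH. The part of these transcripts in the results below was not tested.

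**Figure D1:**
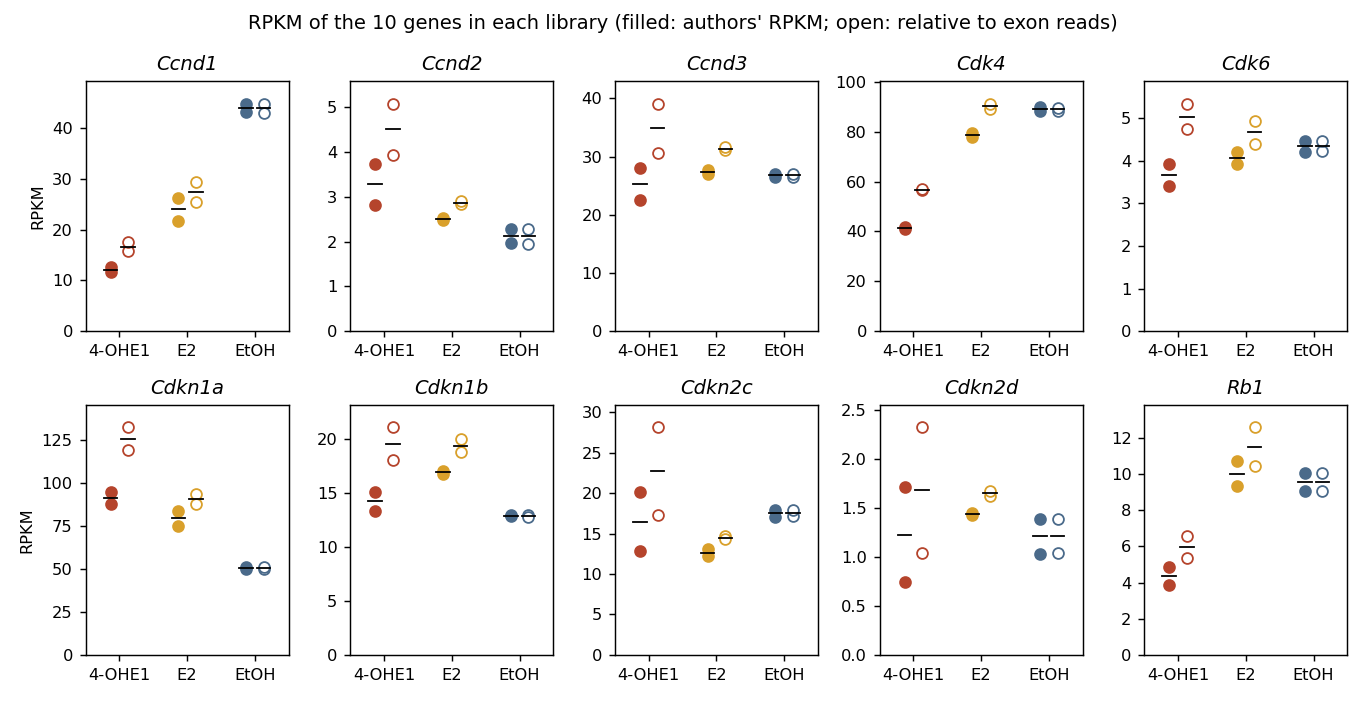
RPKM (vertical axes, linear, from 0) of each of the 10 genes in the 2 libraries of 4-OHE1, E2 and EtOH; filled points are the authors' RPKM, open points are relative to exon reads, and bars are means. Ccnd1 stands lowest in 4-OHE1 and highest in EtOH under both scalings, and Cdkn1a the other way round.

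In both comparisons with EtOH, Ccnd1 fell and Cdkn1a rose. Ccnd1 encodes cyclin D1, the D cyclin best known as a sensor of growth signals. It lies on chromosome 7, 152115836 to 152125830 (minus strand, build mm9, as all coordinates of genes here; transcript NM_007631). Its level was 11.6 and 12.7 RPKM in 4-OHE1, 26.3 and 21.7 RPKM in E2, and 44.7 and 43.1 RPKM in EtOH. The 3 groups did not overlap, under either scaling. Relative to exon reads, Ccnd1 was at 15.7 and 17.6 RPKM in 4-OHE1, 29.5 and 25.4 in E2, and 44.8 and 43.0 in EtOH. Ccnd1 fell in 4-OHE1 against EtOH (log2 change -1.35 ± 0.12, adjusted p = 8.8e-04). It also fell in E2 against EtOH (-0.66 ± 0.12, adjusted p = 0.0336) and in 4-OHE1 against E2 (-0.68 ± 0.12, adjusted p = 0.0204). The call against EtOH held for 4-OHE1 in each of 15 other settings of the analysis. For E2 it was lost in 6 of these settings, among them without any 1 library of E2 or EtOH (adjusted p up to 0.395) and with no filter on low values (0.0603). For 4-OHE1 against E2 it was lost without any 1 library of E2 or EtOH and in a fit of only the libraries compared (up to 0.0955).

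Cdkn1a, on chromosome 17 at 29230714 to 29237667 (plus strand, NM_007669), encodes p21, an inhibitor of cyclin-CDK complexes that p53 and other stress signals induce. It stood at 88.1 and 95.02 RPKM in 4-OHE1, 83.7 and 75.3 RPKM in E2, and 50.0 and 51.4 RPKM in EtOH. Both estrogen groups lay above EtOH, and 4-OHE1 above E2 without overlap. Relative to exon reads the values were 119.5 and 132.5 in 4-OHE1, 93.7 and 88.2 in E2, and 50.1 and 51.3 in EtOH. Cdkn1a rose in 4-OHE1 against EtOH (log2 change 1.30 ± 0.09, adjusted p = 9.3e-04) and in E2 against EtOH (0.83 ± 0.09, adjusted p = 0.0130). The first call held in each of 15 other settings, and the second was lost without any 1 library of E2 or EtOH (adjusted p up to 0.181). Between 4-OHE1 and E2 the log2 change of 0.47 ± 0.09 did not pass (adjusted p = 0.160, 95% interval 0.26 to 0.67 relative to exon reads). It passed in limma relative to exon reads alone (adjusted p = 0.0221). On the reads it passed by edgeR (log2 change 0.45, adjusted p = 0.0119) and by DESeq2 (0.46, adjusted p = 8.9e-04). Whether Cdkn1a was called between the estrogens thus turned on the scaling.

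The RefSeq promoter table (GRCm38.p6, a later build than that of the files) lists 2 starts for Cdkn1a, 2790 bases apart. By the shift between the builds at Ccnd3, on the same chromosome, the measured transcript begins near the downstream start. The window before that downstream start holds no copy of the motif described next. The window before the upstream start is shown because it holds a pair of CATG cores with 6 bases between them, the spacing of a p53 binding site. It covers chr17:29090729-29090978, plus strand, 5′ to 3′, and capitals mark the cores.
Cdkn1a upstream start: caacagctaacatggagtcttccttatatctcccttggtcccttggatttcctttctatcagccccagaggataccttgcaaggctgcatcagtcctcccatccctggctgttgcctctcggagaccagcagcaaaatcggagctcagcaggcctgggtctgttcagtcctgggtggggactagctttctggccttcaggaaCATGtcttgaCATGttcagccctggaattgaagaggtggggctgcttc
The motif CATGNNNNNNCATG, which reads the same on both strands, begins 48 bases before that start. Of 32851 windows of 250 bases before a start, 161 held it, or 0.490%, and the other 9 windows of the genes described here did not. The motifs were chosen after the values were seen, and a match describes letters, not binding.

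Set against each other in 1 library, Cdkn1a and Ccnd1 give a ratio that no scaling of the library can change. Their RPKM ratio was 7.60 and 7.51 in 4-OHE1, 3.18 and 3.47 in E2, and 1.12 and 1.19 in EtOH. The inhibitor thus stood above the cyclin per length in every library, by little in EtOH and by more in both estrogen groups.

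The other D cyclins did not share the fall of Ccnd1. Ccnd3, on chromosome 17 at 47730416 to 47736637 (plus strand, NM_007632), encodes the D cyclin of many blood cells. Its level was 22.5 and 28.0 RPKM in 4-OHE1, 27.74 and 27.05 RPKM in E2, and 26.44 and 27.04 RPKM in EtOH. These groups overlapped. None of its log2 changes passed: 0.36 ± 0.13 for 4-OHE1 against EtOH (adjusted p = 0.606), 0.22 ± 0.13 for E2 against EtOH (0.902) and 0.14 ± 0.13 for 4-OHE1 against E2 (0.538). With the authors' scaling the signs for 4-OHE1 turned, to -0.09 against EtOH and -0.12 against E2. The coordinates of Ccnd3 overlap those of Bysl on the other strand, and the strand setting of the counts is not given in the sources used here.

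Ccnd2, on chromosome 6 at 127075727 to 127101066 (minus strand, NM_009829), encodes a further D cyclin and was the lowest of them. It stood at 3.74 and 2.83 RPKM in 4-OHE1, 2.53 and 2.49 RPKM in E2, and 2.28 and 1.96 RPKM in EtOH. The order was thus the reverse of Ccnd1, without overlap between the groups, but no change passed limma under both scalings. For 4-OHE1 against EtOH the log2 change was 0.82 ± 0.21 (adjusted p = 0.117, and 0.0347 relative to exon reads alone). EdgeR called the same difference on 199 and 121 reads in 4-OHE1 against 290 and 469 in EtOH (log2 change 1.08, adjusted p = 0.00785). Without 4-OHE1 replicate 2, limma called it too (log2 change 0.97, adjusted p = 0.0377). For E2 against EtOH it was 0.31 ± 0.21 (adjusted p = 0.658), and for 4-OHE1 against E2 0.50 ± 0.21 (adjusted p = 0.362, 95% interval -0.01 to 1.01). Ccnd2 overlaps 9330179D12Rik, a gene on the other strand.

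The makeup of the D cyclin RNA differed between the groups with no overlap. Ccnd1 made up 30.6% and 29.1% of the summed D cyclin RPKM in 4-OHE1, 46.5% and 42.3% in E2, and 60.9% and 59.8% in EtOH. The share of Ccnd3 was 59.5% and 64.4% in 4-OHE1, 49.0% and 52.8% in E2, and 36.0% and 37.5% in EtOH. Ccnd2 held 9.88% and 6.50% in 4-OHE1, 4.47% and 4.86% in E2, and 3.10% and 2.72% in EtOH. Ccnd1 was thus the most abundant D cyclin per length in EtOH, and Ccnd3 in both estrogen groups. The summed level was 37.9 and 43.5 RPKM in 4-OHE1, 56.6 and 51.2 in E2, and 73.4 and 72.1 in EtOH. Relative to exon reads, the sums of 4-OHE1 (51.4 and 60.6) and E2 (63.3 and 60.0) overlapped, and those of EtOH were 73.6 and 71.9. Between 2 groups of 2 libraries, a two-sided exact permutation test cannot give a p below 0.333, so the shares are given as a description.

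**Figure D2:**
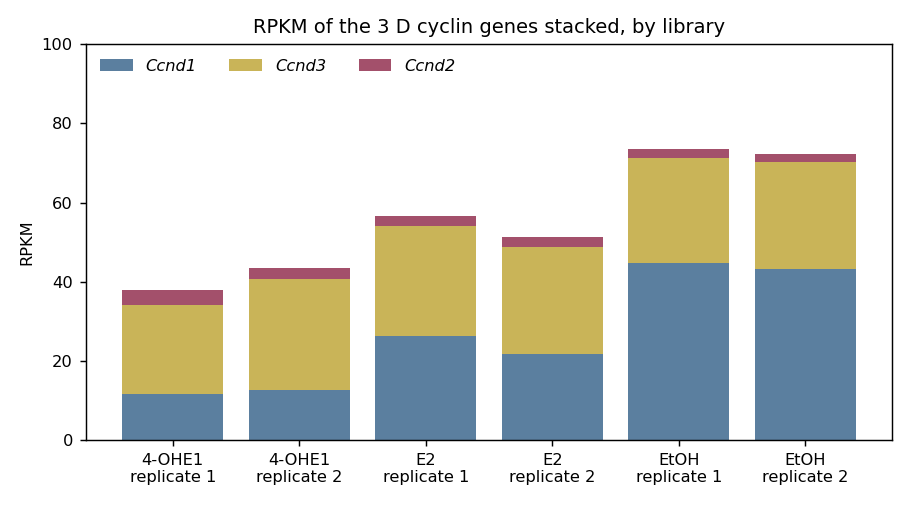
Stacked bars of the authors' RPKM of Ccnd1, Ccnd3 and Ccnd2 (vertical axis, linear, from 0) in each of the 6 libraries. The Ccnd1 part shrinks to 11.6 and 12.7 RPKM in 4-OHE1, against 44.7 and 43.1 RPKM in EtOH, while the Ccnd3 part stays between 22.5 and 28.0 RPKM.

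The kinase partners differed from each other. Cdk4, on chromosome 10 at 126500659 to 126504338 (plus strand, NM_009870), encodes the main catalytic partner of the D cyclins in many cells. It stood at 41.7 and 40.8 RPKM in 4-OHE1, 79.6 and 77.8 RPKM in E2, and 88.1 and 89.9 RPKM in EtOH. Relative to exon reads, 4-OHE1 was at 56.6 and 56.9, while E2 (89.0 and 91.2) and EtOH (88.4 and 89.6) overlapped. Cdk4 fell in 4-OHE1 against EtOH (log2 change -0.64 ± 0.07, adjusted p = 0.00205) and in 4-OHE1 against E2 (-0.66 ± 0.07, adjusted p = 0.00503). Both calls held in each of 15 other settings. In E2 against EtOH its log2 change was 0.02 ± 0.07 (adjusted p = 0.947, 95% interval -0.16 to 0.19), with -0.18 under the authors' scaling.

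The window before the start of Cdk4 (chr10:127063285-127063534, plus strand, GRCm38.p6) is shown because Cdk4 fell in 4-OHE1 against E2 in every setting tried and because the window holds a repeated motif. Capitals mark CACGTG, the E-box that MYC and related factors can bind.
Cdk4: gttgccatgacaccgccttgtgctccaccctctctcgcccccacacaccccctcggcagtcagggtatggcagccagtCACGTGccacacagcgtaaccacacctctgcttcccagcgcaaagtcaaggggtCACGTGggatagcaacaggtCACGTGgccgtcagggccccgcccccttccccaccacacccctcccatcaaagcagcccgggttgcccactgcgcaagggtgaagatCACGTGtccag
This motif, which reads the same on both strands, occurred 4 times, beginning 172, 118, 98 and 11 bases before the start. At least 1 copy was found in 6.02% of the 32851 windows and 4 or more in 7 of them. Among the genes described here, Cdk6 had 1 copy, and the others with a window had none. Another motif, TTTNGCGC, an E2F-type sequence searched on both strands, occurred in 1.13% of all windows and in none of the 10 windows of these genes. Myc itself, which encodes that factor, was at 16.5 ± 0.958 RPKM in 4-OHE1, 18.8 ± 1.12 in E2 and 13.5 ± 0.646 in EtOH (SD, n = 2 each), and it did not pass against EtOH in 4-OHE1 (log2 change 0.71, adjusted p = 0.112) or E2 (0.63, adjusted p = 0.0783). Table entries matched 7 of the 10 genes, with 10 windows in all, and none matched Ccnd1, Ccnd2 or Rb1.

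Cdk6, on chromosome 5 at 3343893 to 3531005 (plus strand, NM_009873), encodes the other D cyclin kinase, which is prominent in blood cells. It stood at 3.93 and 3.39 RPKM in 4-OHE1, 3.93 and 4.21 RPKM in E2, and 4.20 and 4.47 RPKM in EtOH. Each group overlapped the next one in level. No change of Cdk6 passed: 0.18 ± 0.18 for 4-OHE1 against EtOH (adjusted p = 0.4996), 0.08 ± 0.18 for E2 against EtOH (0.877) and 0.09 ± 0.18 for 4-OHE1 against E2 (0.759, 95% interval -0.33 to 0.51). All 3 had the opposite sign under the authors' scaling, at -0.20, -0.07 and -0.12.

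Among the inhibitors, Cdkn1b, which encodes p27, a brake often high in resting cells, was the next after Cdkn1a to stand above EtOH. It lies on chromosome 6 at 134870419 to 134875543 (plus strand, NM_009875). The authors' RPKM were 13.3 and 15.1 in 4-OHE1, 16.8 and 17.1 in E2, and 12.9 and 12.8 in EtOH. Relative to exon reads, 4-OHE1 (18.1 and 21.1) and E2 (18.8 and 20.0) overlapped, and both were above EtOH (13.0 and 12.8). Neither the 0.56 ± 0.13 of 4-OHE1 against EtOH (adjusted p = 0.417) nor the 0.55 ± 0.13 of E2 against EtOH (0.128) passed limma under both scalings. Relative to exon reads alone, limma called the change in 4-OHE1 (adjusted p = 0.0228) but not in E2 (0.0676). With the authors' scaling it was 0.13 in 4-OHE1 and 0.37 in E2. EdgeR called Cdkn1b in both, at a log2 change of 0.58 (adjusted p = 0.0180) for 4-OHE1 and 0.59 (adjusted p = 0.0436) for E2. The authors' deposited table has an adjusted p of 4.0e-04 for E2 and 0.0875 for 4-OHE1. Between 4-OHE1 and E2 the log2 change was 0.01 ± 0.13 (adjusted p = 0.965, 95% interval -0.30 to 0.32).

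The INK4 genes did not pass in any comparison. Cdkn2c, on chromosome 4 at 109333481 to 109337977 (minus strand), encodes p18, an inhibitor of CDK4 and CDK6. It stood at 12.8 and 20.2 RPKM in 4-OHE1, 13.1 and 12.2 RPKM in E2, and 17.1 and 18.0 RPKM in EtOH. In the authors' RPKM, the libraries of 4-OHE1 spanned the levels of EtOH and, for the lower one, of E2. Relative to exon reads, Cdkn2c in 4-OHE1 (17.4 and 28.1) lay above E2 (14.7 and 14.3) and overlapped EtOH (17.1 and 17.9). Its log2 change was 0.32 ± 0.22 in 4-OHE1 against EtOH (adjusted p = 0.672), -0.26 ± 0.22 in E2 against EtOH (0.641) and 0.58 ± 0.22 in 4-OHE1 against E2 (0.295), and the first had the opposite sign under the authors' scaling (-0.12). Without 4-OHE1 replicate 1, the difference between 4-OHE1 and E2 was 0.91 and was called (adjusted p = 0.0133). The RPKM table measures transcript NM_007671 of Cdkn2c, with 1102 bases, and the read tables NM_001301368, with 2033 bases.

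Cdkn2d encodes p19, a further INK4 inhibitor, and lies on chromosome 9 at 21092908 to 21095653 (minus strand, NM_009878). It was the lowest of the 10 genes, at 1.71 and 0.745 RPKM in 4-OHE1, 1.46 and 1.43 RPKM in E2, and 1.04 and 1.39 RPKM in EtOH. These values rest on 20 and 7 reads in 4-OHE1, 13 and 14 in E2, and 29 and 73 in EtOH. Its log2 change was 0.24 in 4-OHE1 against EtOH, with a wide 95% interval of -0.53 to 1.01. The adjusted p was 0.963 for 4-OHE1 against EtOH, 0.801 for E2 against EtOH and 0.967 for 4-OHE1 against E2.

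Rb1, on chromosome 14 at 73595309 to 73725598 (minus strand, NM_009029), encodes the substrate of the cyclin D kinases that holds E2F factors in check. Its level was 4.86 and 3.84 RPKM in 4-OHE1, 9.31 and 10.7 RPKM in E2, and 10.0 and 9.07 RPKM in EtOH. The libraries of 4-OHE1 were below those of both other groups, which overlapped in the authors' RPKM. Relative to exon reads, Rb1 was at 6.59 and 5.35 in 4-OHE1, 10.4 and 12.6 in E2, and 10.1 and 9.04 in EtOH, without overlap. Rb1 fell in 4-OHE1 against EtOH (log2 change -0.60 ± 0.17, adjusted p = 0.0464) and in 4-OHE1 against E2 (-0.84 ± 0.17, adjusted p = 0.0304). The first call was lost without 4-OHE1 replicate 2 or any 1 library of E2 or EtOH (adjusted p up to 0.321), and the second without any 1 library of E2 or EtOH (up to 0.136). Among other settings, both were also lost with no filter on low values (0.0813 against EtOH and 0.0598 against E2) and with only the libraries compared (0.0716 and 0.121). In E2 against EtOH the log2 change was 0.24 ± 0.17 (adjusted p = 0.861). Lpar6 and Mir687 lie within the span of Rb1.

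**Figure D3:**
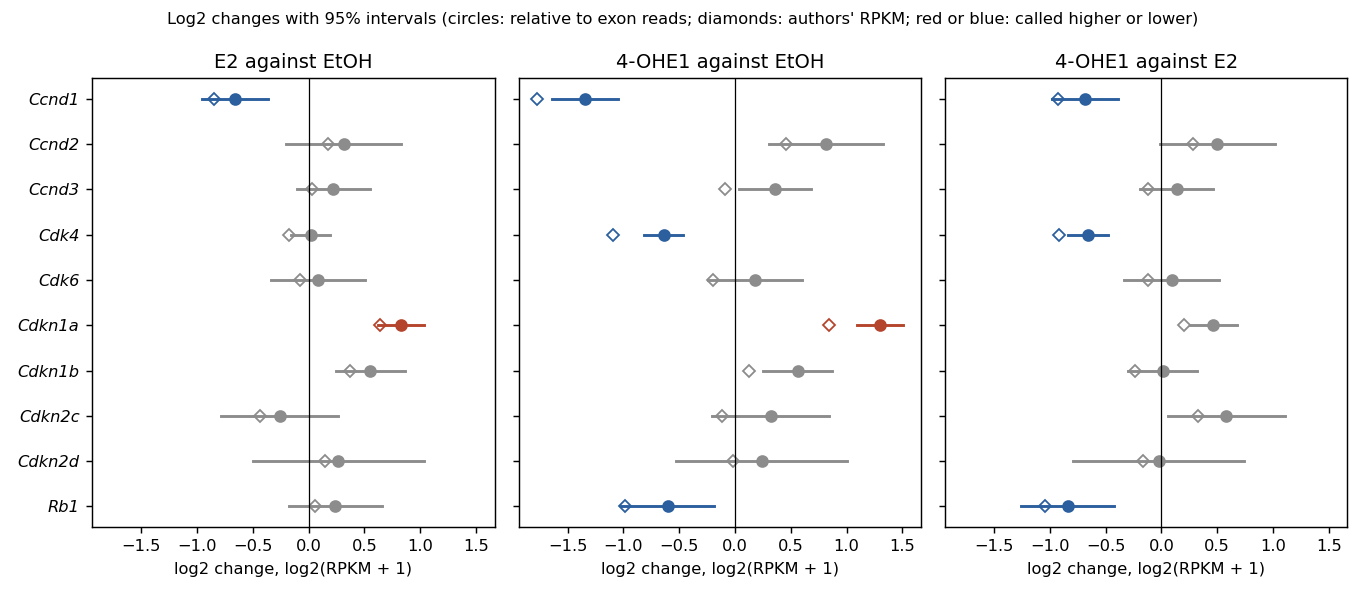
Log2 changes (horizontal axes) of the 10 genes in E2 against EtOH, 4-OHE1 against EtOH and 4-OHE1 against E2. Circles with 95% intervals are relative to exon reads and diamonds are with the authors' RPKM; red or blue marks genes called higher or lower under both scalings, so that Ccnd1 is blue in all 3 panels, Cdkn1a is red in those against EtOH, Cdk4 and Rb1 are blue in those of 4-OHE1, and the signs of Ccnd3, Cdk6, Cdkn2c and Cdkn2d for 4-OHE1 against EtOH differ between both scalings.

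In all, 1 of the 10 genes rose and 3 fell in 4-OHE1 against EtOH, where limma called 5.74% of the 10950 genes higher and 13.9% lower. In E2 against EtOH 1 rose and 1 fell, with 1.75% of all genes higher and 2.17% lower. None rose and 3 fell in 4-OHE1 against E2, with 2.50% of all genes higher and 7.14% lower. At an unadjusted p under 0.05 limma still had 0 higher. At an adjusted p under 0.05 edgeR and DESeq2 each called 1 higher, Cdkn1a. The median log2 change of the 10 genes was 0.28 for 4-OHE1 against EtOH, 0.23 for E2 against EtOH and 0.05 for 4-OHE1 against E2, beside -0.04, -0.0049 and -0.02 over all genes tested. With the authors' scaling the first and last turned to -0.10 and -0.14. The balance over all genes also depended on the scaling: the authors' scaling alone gave 629 genes higher and 4328 lower in 4-OHE1 against EtOH, 193 and 596 in E2 against EtOH, and 274 and 2162 in 4-OHE1 against E2. Exon reads alone gave 1399 and 1521, 348 and 238, and 607 and 782, where both together gave 629 and 1521, 192 and 238, and 274 and 782.

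On whole reads recovered from the deposited tables, 3 of the 10 genes were higher and 3 lower in 4-OHE1 against EtOH by edgeR, as by DESeq2. EdgeR called 14.0% of all genes higher and 14.9% lower there, and DESeq2 12.4% and 11.7%. In E2 against EtOH both tools called 2 higher and 1 lower, with 4.53% and 3.02% of all genes in edgeR and 5.88% and 3.71% in DESeq2. Both called 1 higher and 3 lower in 4-OHE1 against E2, with 6.54% and 7.82% of all genes in edgeR and 6.19% and 6.89% in DESeq2. The genes beyond the limma calls were Cdkn1b in both comparisons with EtOH, Ccnd2 in 4-OHE1 against EtOH and Cdkn1a in 4-OHE1 against E2. The comparisons with EtOH share its 2 libraries, so they are not independent of each other. The edgeR and DESeq2 shares of all genes given here also stand beside their list counts below.

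Of 20 E2F target genes of S phase, which lie downstream of the cyclin D kinases, 12 fell and 8 did not pass in 4-OHE1 against EtOH, where 13.9% of all genes were called lower (median log2 change -0.80, beside -0.04 over all genes tested). EdgeR called 11 of them lower there, and DESeq2 10. In E2 against EtOH 4 fell and 16 did not pass, where 2.17% of all genes were called lower (median -0.68, beside -0.0049), where 16 were lower at an unadjusted p under 0.05 and edgeR and DESeq2 each called 13 lower. None rose in limma in either comparison, also at an unadjusted p under 0.05, while edgeR and DESeq2 each called 1 higher in 4-OHE1 against EtOH and 0 in E2 against EtOH. Rrm2, the regulated subunit of ribonucleotide reductase, was at 1.62 ± 0.184 RPKM in 4-OHE1, 2.37 ± 0.770 in E2 and 7.52 ± 0.218 in EtOH (SD, n = 2 each). Its log2 change was -1.40 ± 0.24 in 4-OHE1 against EtOH (adjusted p = 0.00821) and -1.21 ± 0.24 in E2 against EtOH (adjusted p = 0.0405). Mcm6, a subunit of the replicative helicase, fell in both comparisons as well, by 1.08 in 4-OHE1 and by 0.78 in E2 on the log2 scale, and Gins2, a partner of that helicase, fell by 1.06 in 4-OHE1.

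In 4-OHE1 against E2, 2 of the 20 genes rose, 2 fell and 16 did not pass (median log2 change -0.19, beside -0.02 over all genes). Limma called 2.50% of all genes higher and 7.14% lower there. Mki67, which encodes the proliferation marker Ki-67, was at 16.0 ± 1.07 RPKM in 4-OHE1, 8.18 ± 0.480 in E2 and 13.6 ± 0.593 in EtOH, and rose in 4-OHE1 against E2 (log2 change 1.15 ± 0.13, adjusted p = 0.00622). Top2a, the topoisomerase of dividing cells, rose there too (0.97 ± 0.17, adjusted p = 0.0237) and fell in E2 against EtOH (-1.10 ± 0.17, adjusted p = 0.0192). Foxm1, a transcription factor of G2 and mitosis, was at 5.91 ± 1.18 RPKM in 4-OHE1, 1.95 ± 0.325 in E2 and 3.07 ± 0.392 in EtOH, and rose against both E2 (1.49 ± 0.22, adjusted p = 0.0116) and EtOH (1.16 ± 0.22, adjusted p = 0.0274). Pcna, the sliding clamp of replication, went the other way, with 47.8 ± 1.88 RPKM in 4-OHE1, 87.8 ± 6.45 in E2 and 129.7 ± 1.40 in EtOH, and fell in 4-OHE1 against E2 (-0.60 ± 0.08, adjusted p = 0.00823). The genes of this list thus did not move as 1 group between the estrogens. The list is named for S phase, but Mki67 and Top2a, the 2 that rose, are known more as genes of G2 and mitosis. Foxm1 was the single limma call among the 6 tested DREAM and MuvB genes in either comparison of 4-OHE1, and in E2 against EtOH none of them passed limma, also at an unadjusted p under 0.05, or edgeR or DESeq2.

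Of 10 tested pocket protein and E2F genes, partners of the retinoblastoma protein or relatives of it, 3 fell in 4-OHE1 against EtOH, none rose and 7 did not pass, where 13.9% of all genes were called lower. E2f1, an activating E2F factor, was at 5.27 ± 1.55 RPKM in 4-OHE1, 8.97 ± 1.09 in E2 and 14.7 ± 0.611 in EtOH (log2 change -0.95 ± 0.22 in 4-OHE1 against EtOH, adjusted p = 0.0244). The repressor gene E2f6 changed by -1.01 ± 0.27 (adjusted p = 0.0377), and Tfdp1, which encodes the dimerisation partner of E2F factors, by -0.75 ± 0.21 (adjusted p = 0.0428). No gene of this list passed in E2 against EtOH or in 4-OHE1 against E2, with 1 and 0 lower and none higher at an unadjusted p under 0.05, and edgeR and DESeq2 called none in either. Of the 8 tested genes for cyclin E, CDK2 and CDK activation, limma called 0 in all 3 comparisons. At an unadjusted p under 0.05 there was 1 lower in 4-OHE1 against E2, and edgeR and DESeq2 each called 1 lower in both comparisons of 4-OHE1 and 0 in E2 against EtOH.

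Among 3 other tested CDK inhibitor genes, 1 fell in E2 against EtOH, Cdkn3, a phosphatase gene that is itself raised in dividing cells (log2 change -1.33 ± 0.26, adjusted p = 0.0407, and not called by edgeR or DESeq2). Over all genes, limma called 2.17% lower in that comparison. Neither comparison of 4-OHE1 had a call in this list, by limma, edgeR or DESeq2, with 1 higher and 1 lower against E2 at an unadjusted p under 0.05 and 0 against EtOH. Of 10 genes for the turnover of D cyclins and p27, 1 rose, 1 fell and 8 did not pass in 4-OHE1 against EtOH. These shares were not far from the 5.74% higher and 13.9% lower over all genes. Fbxw7, a ubiquitin ligase subunit that marks cyclin E, rose to 7.93 ± 0.168 RPKM in 4-OHE1, against 4.25 ± 0.494 in EtOH (log2 change 1.18 ± 0.16, adjusted p = 0.00955), and Ddb1, an adaptor of another ligase, fell by 0.29 (adjusted p = 0.0406). In the other 2 comparisons none of the 10 passed limma, where 2 were higher and 1 lower in E2 at an unadjusted p under 0.05 and none in 4-OHE1 against E2. EdgeR called 1 of them higher in each, and DESeq2 1 in E2 against EtOH and 0 in 4-OHE1 against E2.

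Of 17 tested genes of p53 and its targets, 2 rose, 3 fell and 12 did not pass in 4-OHE1 against EtOH, shares not far from the 5.74% higher and 13.9% lower over all genes. EdgeR, with 18 genes of the list tested, called 4 higher and 5 lower there, and DESeq2 3 and 4. In E2 against EtOH 2 rose, none fell and 15 did not pass, where limma called 1.75% of all genes higher and 2.17% lower. EdgeR and DESeq2 each called 2 higher and 0 lower there (1 lower at an unadjusted p under 0.05 in limma). Between 4-OHE1 and E2, 2 rose and 2 fell, beside 2.50% of all genes higher and 7.14% lower. EdgeR called 2 of the list higher and 3 lower there, and DESeq2 2 and 4. Trp53inp1, a p53-induced gene linked to cell cycle arrest and autophagy, was at 21.6 ± 3.15 RPKM in 4-OHE1, 8.91 ± 1.47 in E2 and 2.59 ± 0.307 in EtOH, and rose in all 3 comparisons (log2 change 3.09 ± 0.20 in 4-OHE1 against EtOH, adjusted p = 2.7e-04). Other risers were Sesn2 in 4-OHE1 against EtOH (1.10), Pmaip1 in E2 against EtOH (1.04) and Sesn1 in 4-OHE1 against E2 (1.08). Gadd45a, a growth arrest gene, went lower in 4-OHE1 against EtOH (-1.27 ± 0.26), as did the kinase gene Plk2 (-0.93 ± 0.09), which also fell in 4-OHE1 against E2 (-1.05 ± 0.09). The p53 targets thus did not all share the direction of Cdkn1a.

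Among 12 FOXO factors and targets, Cited2, a transcriptional coregulator gene, rose against EtOH in 4-OHE1 (log2 change 0.83 ± 0.08) and in E2 (0.71 ± 0.08). Klf2, a factor gene of resting leukocytes, fell in 4-OHE1 against EtOH (-0.37 ± 0.08) and against E2 (-0.34 ± 0.08), and limma called no other gene of the list. EdgeR and DESeq2 each called 3 of its genes higher and 1 lower in 4-OHE1 against EtOH, 2 higher and 0 lower in E2 against EtOH, and 2 higher and 1 lower in 4-OHE1 against E2. Over all genes, limma called 5.74% higher and 13.9% lower in 4-OHE1 against EtOH, 1.75% and 2.17% in E2 against EtOH, and 2.50% and 7.14% in 4-OHE1 against E2. In the same order, edgeR called 14.0% and 14.9%, 4.53% and 3.02%, and 6.54% and 7.82%. Of 7 genes of macrophage growth control, limma called 1 higher in each comparison with EtOH, Maf, whose product is known to restrain the division of macrophages. EdgeR called 4 higher in 4-OHE1 against EtOH and 2 in E2 against EtOH, and DESeq2 5 and 3. Over all genes, edgeR called 14.0% and 4.53% higher in these comparisons, and DESeq2 12.4% and 5.88%. Maf was at 182.4 ± 3.18 RPKM in 4-OHE1, 168.9 ± 1.13 in E2 and 113.9 ± 1.91 in EtOH (log2 change 1.13 ± 0.06, adjusted p = 6.3e-04, in 4-OHE1, and 0.76 ± 0.06, adjusted p = 0.00704, in E2). Csf1r, which encodes the CSF1 receptor, did not pass against EtOH in 4-OHE1 or E2. Its log2 change in 4-OHE1 was 0.27 relative to exon reads but -0.19 with the authors' scaling (larger adjusted p = 0.0583). In E2 the log2 change of Csf1r was -0.04 (adjusted p = 0.739). None of the 7 passed in 4-OHE1 against E2 by limma, with 1 higher at an unadjusted p under 0.05 and 3 higher by edgeR and by DESeq2.

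**Figure D4:**
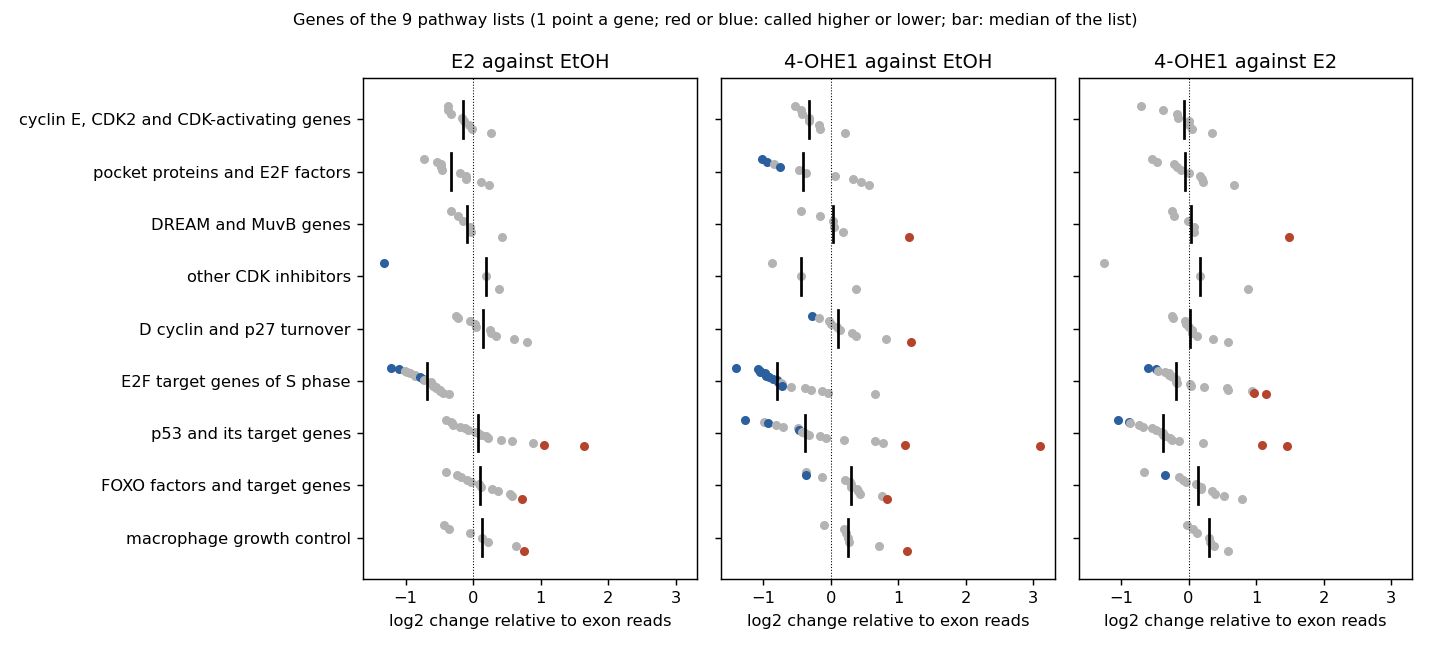
Log2 change relative to exon reads (horizontal axes) of each tested gene of the 9 pathway lists, 1 point a gene, in 3 comparisons; red or blue marks genes called higher or lower under both scalings and the bar is the median of a list. The E2F target genes of S phase lie mostly below 0 in both comparisons with EtOH, with medians of -0.68 in E2 and -0.80 in 4-OHE1.

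Over the 6 libraries, the genes with profiles closest to 4 of these genes were found by the root mean square difference of log2 values relative to the mean of EtOH. For Ccnd1 they were Nup37, Rab3il1 and Atp6v1a, at 0.06, 0.07 and 0.08, where the median over all genes tested was 0.88. Lrrc8a, 1700071M16Rik and Rassf2 lay closest to Cdkn1a, at 0.02, 0.07 and 0.09 (median 0.95). Those of Ccnd2 were Eef2k, Il6ra and Ep400, at 0.05, 0.06 and 0.06 (median 0.60). Ccnd3 had Galnt1, Dennd4c and Ifngr1 nearest, at 0.04, 0.05 and 0.05 (median 0.42). These distances describe likeness in 3 groups of 2 libraries and carry no test.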

How the data were processed

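RNA sequencing libraries of sorted visceral fat macrophages were analysed, 6 in all, 2 each of 4-OHE1, E2 and EtOH. HOMER counts over exons of RefSeq genes (mm9, 1 isoform a gene), per the file headers, underlie the RPKM that the authors deposited for all libraries. Their 2 deposited tables of each estrogen against EtOH hold signal columns, exon read counts scaled to 1 total within a table. These tables also give the authors' log2 fold changes, estrogen over EtOH, with p-values. STAR, HOMER, DESeq2 and edgeR are listed without versions in the submitters' processing notes. Further sheets with part of these genes were left aside.

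Dividing a library's signal by 1 factor gave whole reads: the 119614 values above 0 all (100.0%) came within 0.05 of one. The 266 genes whose transcript differed between both tables were left out of tests on reads. The files hold no raw counts, so limma-trend (limma 3.58.1, R 4.3.3) was the main test, on log2(RPKM + 1) for 10950 genes (mean RPKM 1 or more), with all 6 libraries in 1 fit, two-sided, with Benjamini-Hochberg adjustment and a threshold of 0.05. It was run with both scalings. Intervals are 95% intervals of that fit. EdgeR 4.0.16 (quasi-likelihood) and DESeq2 1.42.0 on recovered reads were alternatives, beside pseudocount, filter, scaling, libraries in the fit, replicate block and each library left out, 15 in all. The fits were tested on simulated data.

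All 10 genes are named. Of each pathway list, up to 3 called genes with the largest log2 change in a comparison are named, and genes named outside this rule (Myc, Csf1r, Mki67 and Pcna values in other comparisons) were chosen after their values were seen. The genes and lists were chosen with earlier results of these data known.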

Additional observations from a re-analysis of the deposited data

How the results depend on the processing

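Of the 9 called changes of the 10 genes, 4 kept their call in all 15 alternatives: Ccnd1 and Cdkn1a in 4-OHE1 against EtOH, and Cdk4 in 4-OHE1 against both EtOH and E2. None of the 9 changed sign. Of 31 calls named from the pathway lists, 4 kept theirs in all 15, those of Mcm6, Maf and Trp53inp1 in 4-OHE1 against EtOH and of Plk2 in 4-OHE1 against E2, and 18 kept theirs in the 9 alternatives that left out no library. Of 405 list counts under the alternatives, 263 stayed within 1.5 times, 63 were smaller and 79 larger. Leaving out 1 library leaves its group with 1, which is then assumed to vary like the others. Cdkn2d rests on 7 to 73 reads a library.

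Genes called in E2 against EtOH, 430 in all, numbered 789 with the authors' scaling, 919 and 905 by edgeR with and without TMM, 1077 by DESeq2, 1029 with only the libraries compared, and 46 to 1037 with 1 library left out. In 4-OHE1 against EtOH 2150 genes were called, against 4957, 3523, 3499 and 3351 in the first 4 of these alternatives and 563 to 3181 with 1 library left out. In 4-OHE1 against E2 there were 1056, against 2436, 1748, 1727, 1819 and 338 in these 5, and 172 to 2241 with 1 library left out. Of the 10 genes, 2 were called in E2 against EtOH, 1 without the filter and 1 with the replicate block, and 0 to 3 with 1 library left out. In 4-OHE1 against EtOH 4 were called, and 3 to 4 with 1 library left out. In 4-OHE1 against E2 it was 3, 1 with only the libraries compared, and 1 to 4 with 1 library left out. The cause of these shifts was not tested.

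Signs turned for changes that had not passed. With the authors' scaling, Cdk4 (-0.18) and Cdk6 (-0.0743) turned in E2 against EtOH. In 4-OHE1 against EtOH, Ccnd3 (-0.0861), Cdk6 (-0.20), Cdkn2c (-0.12) and Cdkn2d (-0.0198) turned, and in 4-OHE1 against E2 Ccnd3 (-0.12), Cdk6 (-0.12) and Cdkn1b (-0.24). In 4-OHE1 against E2, Cdkn1b also turned by edgeR with TMM (-0.0114), and Cdkn2d by edgeR with TMM (0.0233), without TMM (0.0435) and by DESeq2 (0.0307). With 1 library left out, Cdk4 in E2 against EtOH ranged from -7.21e-05 (without E2 replicate 2) to 0.0339. In 4-OHE1 against EtOH, Cdkn2c then ranged from -0.0120 (without 4-OHE1 replicate 2) to 0.65, and Cdkn2d from -0.11 (without 4-OHE1 replicate 1) to 0.59. In 4-OHE1 against E2, Ccnd3 ranged from -0.0346 to 0.31 and Cdkn2d from -0.38 to 0.33, and both turned without 4-OHE1 replicate 2. Cdkn1b ranged there from -0.0934 to 0.12 and turned without 4-OHE1 replicate 2 or E2 replicate 1.

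Groups share replicate numbers, but the labels do not say what a number marks, and deviations of same-numbered libraries were uncorrelated (r between -0.02 and 0.01 over 10950 genes). With the replicate block, 330 genes were called in E2 against EtOH, 1911 in 4-OHE1 against EtOH and 856 in 4-OHE1 against E2. Of the 10 genes 1, 3 and 2 were called, without Ccnd1 in E2 against EtOH (adjusted p = 0.0591) and without Rb1 in 4-OHE1 against EtOH (0.0722) and against E2 (0.0501).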
